A study of Mus musculus with 9 samples.

Results

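The 10 genes described here are used as markers of astrocytes: Gfap, S100b, Aldh1l1, Slc4a4, Atp1b2, Aqp4, Slc1a2, Slc1a3, Gja1 and Aldoc. They were chosen by symbol from a table of RNA-seq counts, and all 10 were found among its 24503 gene rows. The libraries come from primary neural stem cells of the mouse cortex at E13.5, enriched as neurospheres and grown on laminin with FGF and EGF. All cells were labelled wild type with floxed Phf2 alleles (Phf2flox/flox), controls included, and no Cre is named in the labels. The virus they received carried a non-targeting hairpin (shNT), hairpin shRad21 #1 (shRad21_1 here) or hairpin shRad21 #2 (shRad21_2), with 3 libraries per group and 9 in all. Rad21 encodes the kleisin subunit of cohesin, the ring complex that holds sister chromatids together and extrudes chromatin loops. Each Rad21 group rests on 1 hairpin sequence. The labels give no time after infection and do not say whether the libraries of a group came from separate cultures or animals, so the spread behind each p-value is that of libraries and may be technical.

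Astrocytes arise late in cortical development from the radial glia that first make neurons, and cultured neural stem cells already express part of the astrocyte programme. Astrocytes take up glutamate, buffer potassium and bicarbonate, move water at their endfeet and couple to each other through gap junctions. The 10 genes cover these tasks. Gfap encodes an intermediate filament and S100b a calcium-binding protein. Aldh1l1 and Aldoc are enzymes of folate metabolism and glycolysis. Slc4a4 is a sodium bicarbonate cotransporter, Atp1b2 a beta subunit of the sodium pump and Aqp4 the endfoot water channel. Slc1a2 and Slc1a3 are the glutamate transporters GLT-1 and GLAST, and Gja1 is the gap junction protein connexin 43. Transcription of Gfap is known to be driven by STAT3 and by nuclear factor I (NFI) proteins.

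Promoter sequences are shown for 4 members whose windows hold the letters of a STAT or NFI site and for Gja1, whose window holds neither and whose level did not go down. They are RefSeq sequences of build GRCm38.p6, from 250 bases before to 20 bases after the annotated start, read 5′ to 3′ on the strand of the gene. Capitals mark STAT matches (TTCNNNGAA) and the short NFI motif (TTGGC or, on the other strand, GCCAA). The windows are chr11:102897181-102897450 for Gfap, chr15:8710788-8711057 for Slc1a3, chr11:78323948-78324217 for the second of 2 listed starts of Aldoc, chr10:76253586-76253855 for S100b and chr10:56377050-56377319 for Gja1.
Gfap: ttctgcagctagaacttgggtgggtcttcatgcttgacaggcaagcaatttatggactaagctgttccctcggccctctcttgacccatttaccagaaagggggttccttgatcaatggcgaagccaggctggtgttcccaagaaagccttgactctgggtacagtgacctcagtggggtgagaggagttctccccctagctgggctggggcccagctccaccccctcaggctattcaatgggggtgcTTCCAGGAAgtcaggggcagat
Slc1a3: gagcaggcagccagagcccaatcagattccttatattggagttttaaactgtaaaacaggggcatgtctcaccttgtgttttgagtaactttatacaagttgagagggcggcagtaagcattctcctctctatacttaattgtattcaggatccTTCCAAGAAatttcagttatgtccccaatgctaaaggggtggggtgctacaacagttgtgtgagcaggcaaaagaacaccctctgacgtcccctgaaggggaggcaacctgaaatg
Aldoc: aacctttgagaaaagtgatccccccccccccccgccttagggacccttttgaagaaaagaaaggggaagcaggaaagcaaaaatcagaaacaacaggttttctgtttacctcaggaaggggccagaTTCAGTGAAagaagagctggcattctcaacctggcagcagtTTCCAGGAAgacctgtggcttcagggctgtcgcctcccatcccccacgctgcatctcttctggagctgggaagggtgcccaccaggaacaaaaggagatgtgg
S100b: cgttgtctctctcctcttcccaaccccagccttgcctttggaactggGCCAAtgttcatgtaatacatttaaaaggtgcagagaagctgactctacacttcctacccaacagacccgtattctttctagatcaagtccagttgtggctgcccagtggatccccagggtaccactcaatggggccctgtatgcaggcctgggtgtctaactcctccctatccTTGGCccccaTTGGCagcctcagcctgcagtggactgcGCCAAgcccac
Gja1: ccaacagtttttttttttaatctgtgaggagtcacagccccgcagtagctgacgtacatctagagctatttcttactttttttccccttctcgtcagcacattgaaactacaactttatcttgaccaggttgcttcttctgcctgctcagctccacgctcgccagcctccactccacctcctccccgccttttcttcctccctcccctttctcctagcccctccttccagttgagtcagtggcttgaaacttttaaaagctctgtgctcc
RefSeq windows of 300 bases (250 before and 50 after the start) were found for 8 members, 10 windows in all, with a second start for Slc4a4 and Aldoc; Atp1b2 and Aqp4 had no entry. Both strands were searched. The STAT letters stood in 3 of the 10 windows and in 8.30% of all 32851 windows. With the start as position 1, the match in Gfap began at -2, that in Slc1a3 at -96 and those of Aldoc at -124 and -83. The short NFI motif stood in 5 of the 10 windows and in 46.7% of all, with 4 matches in S100b, at -203, -29, -19 and 10. The full palindromic NFI site, which contains the short motif on both strands, was in 0 of 10 (0.0365% of all), and the CTCF core motif in 0 of 10 (1.15%). The E-box CAGNTG was in 5 of 10 (51.4%) and TATAAA in 1 of 10, that of Slc1a3 (13.6%). The windows of Gja1 and of Aldh1l1, which fell with shRad21_2, both held 0 STAT and 0 short NFI matches. That of Slc1a2, which was not called with shRad21_2, held 1 short NFI match. A match describes letters and is no evidence of binding.

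The libraries held 34780003 to 46644607 counts each, and 3 counts were worth 0.0664 to 0.0880 CPM, depending on the library. CPM are counts relative to the TMM-scaled library total. Rad21 stood at 531, 450 and 456 CPM with shNT, 187, 174 and 178 with shRad21_1 and 82.0, 91.2 and 82.5 with shRad21_2, so both hairpins lowered it and shRad21_2 lowered it further. All 25 neural stem cell markers had counts, among them Nes at 1153 to 1325 CPM and Sox2 at 369 to 450 CPM in shNT. Some libraries stood closer than others. A chi-square of the counts, divided by the number of genes, was 3.13 for replicates 2 and 3 of shNT and 2.17 for those of shRad21_1. Other pairs within a group gave 22.2 to 67.5. shRad21_1 replicate 1 stood apart from its group in most of the astrocyte genes, and the main values of these genes are given with and without it.

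Levels can be compared between genes only per length, as CPM divided by exonic length in kilobases and rescaled to the same sum in each library. On that scale Slc1a3 was at 507 ± 12.5 (SD, n = 3) in shNT and Aldoc at 456 ± 46.5, and every library of Slc1a3 (496 to 520) lay above every library of Aldoc (402 to 484). Atp1b2 followed at 338 ± 21.2, Slc4a4 at 69.5 ± 2.45, Gja1 at 40.5 ± 8.64 and S100b at 15.4 ± 5.00. Gfap (7.16 ± 2.67), Slc1a2 (7.04 ± 0.935) and Aldh1l1 (6.46 ± 0.731) overlapped and have no order among themselves, and Aqp4 was the lowest at 1.65 ± 0.163. The stem cell cultures thus held Slc1a3, Aldoc and Atp1b2 mRNA far above that of Gfap and Aqp4. With shRad21_2, Slc1a3 and Aldoc were still the 2 highest members per length (243 ± 20.7 and 110 ± 7.17). Gja1 came next at 53.7 ± 4.20, above Atp1b2 at 29.0 ± 1.80, and Gfap was last at 0.0314 ± 0.0345, below Aqp4 at 0.0446 ± 0.0119, with overlapping libraries. With coding length in place of exonic length, neighbours in the shNT order changed places (Atp1b2 and Aldoc, Gja1 and Slc4a4, Slc1a2 and Gfap).

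The astrocyte genes were far lower with the hairpin that left less Rad21 mRNA. edgeR's quasi-likelihood test, adjusted by Benjamini-Hochberg over all 13560 genes tested, called 8 of the 10 lower and 0 higher for shRad21_2 against shNT. Over all genes tested, 22.5% were called lower and 21.1% higher in that comparison. The 8 were Gfap, S100b, Aldh1l1, Slc4a4, Atp1b2, Aqp4, Slc1a3 and Aldoc. The median log2 fold change of the 10 was -2.55, against 0.01 for all genes. In CPM, 9 members lay lower in all 3 shRad21_2 libraries than in any shNT library (28.6% of all genes did) and Gja1 lay higher (27.3% did). In bulk RNA, fewer cells of a type and less RNA per cell cannot be told apart. Scaled to library totals without a composition factor, the share of higher genes among all calls moved from 48.4% to 38%, with the same 8 members lower.

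For shRad21_1 against shNT, edgeR called 0 of the 10 members, against 9.82% of all genes (4.19% in the higher direction and 5.63% in the lower). At an unadjusted p under 0.05 there were 3 members (S100b, Atp1b2 and Aldoc), and DESeq2 and limma-voom each called 0. The median log2 fold change of the 10 was -0.35, against 0.01 for all genes, and -0.16 without shRad21_1 replicate 1. In CPM, 5 members (S100b, Aldh1l1, Atp1b2, Aqp4 and Aldoc) lay lower in all 3 shRad21_1 libraries than in any shNT library, as did 19.9% of all genes, and 0 lay higher (20.3% of all genes). Without shRad21_1 replicate 1, Atp1b2 was called lower (-0.68, edgeR adjusted p = 6.25e-04). Without the first libraries of both shNT and shRad21_1, an alternative chosen with earlier results of these data known, Atp1b2 (-0.73, adjusted p = 0.00103) and Aldoc (-0.41, adjusted p = 0.0356) were.

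The hairpins also differed from each other. For shRad21_2 against shRad21_1, edgeR called the same 8 members lower and 0 higher, beside 14.4% of all genes lower and 11.9% higher (26.3% in all), with a median log2 fold change of -2.04 for the 10 and -0.002 for all genes. These 8 lay lower in all 3 shRad21_2 libraries than in any shRad21_1 library (19.8% of all genes did). Without shRad21_1 replicate 1 the differences between hairpins were -8.60 for Gfap, -4.74 for Aqp4, -2.75 for Atp1b2, -2.53 for Slc4a4, -2.44 for Aldh1l1, -1.72 for S100b, -1.62 for Aldoc and -0.99 for Slc1a3, and edgeR called all 8. On library totals the share of higher genes among all calls was 32.2% in place of 45.1%. For the mean of both hairpins against shNT the same 8 were called lower (18.1% of all genes) and 0 higher (15.3%). For that mean, Gfap was not called by edgeR without shNT replicate 2 (-3.61) or 3 (-3.42) or without shRad21_2 replicate 1 (-3.34) or 2 (-3.63). The comparisons with shNT share the 3 control libraries and are not independent of each other.

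**Figure D1:**
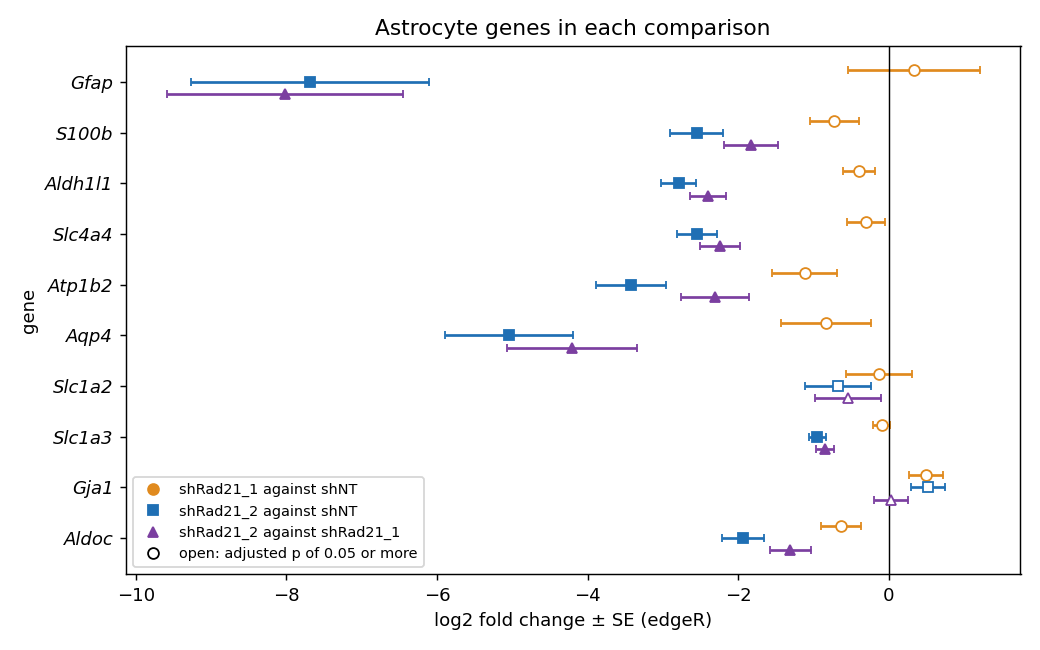
Log2 fold change of each astrocyte gene (horizontal axis, edgeR, with bars of 1 SE) for shRad21_1 against shNT (circles), shRad21_2 against shNT (squares) and shRad21_2 against shRad21_1 (triangles); open symbols have an adjusted p of 0.05 or more. Filled squares lie between -7.69 for Gfap and -0.95 for Slc1a3, Slc1a2 and Gja1 are open in all 3 comparisons, and all circles are open.

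Gfap (ENSMUSG00000020932.14, chromosome 11 from 102887336 to 102900912 of mm10, minus strand) was almost absent from the shRad21_2 libraries. It was at 4.62, 8.59 and 10.5 CPM in the 3 shNT libraries, 0.190, 14.6 and 15.1 CPM with shRad21_1 and 0, 0.0293 and 0.0856 CPM with shRad21_2. All shRad21_2 libraries were below all shNT libraries, whereas shRad21_1 replicate 1 was far below and its other libraries above the shNT range. In counts the groups had 1005, 1123 and 4 in all, of which 7 of the 1123 came from shRad21_1 replicate 1. The ratio of shNT to shRad21_2, scaled for depth, was 232, with an exact Clopper-Pearson interval at a confidence level of 0.95 from 90.3 to 853 that covers counting error only. Gfap fell with shRad21_2 (log2 fold change -7.69, SE 1.58, edgeR adjusted p = 0.00343) and differed between the hairpins (-8.02, SE 1.57, adjusted p = 0.00577). The call against shNT was not made by limma-voom (-7.71, adjusted p = 0.114), where the 20 alternatives gave adjusted p from 6.84e-07 to 0.114, nor was the call between hairpins (-6.63, adjusted p = 0.217). With shRad21_1 the value was 0.33 (SE 0.87, adjusted p = 0.851), and 0.91 (adjusted p = 0.0718) without replicate 1. The shNT libraries themselves spread over a ratio of 2.27 for this gene.

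S100b (ENSMUSG00000033208.7, chromosome 10 from 76253853 to 76261159) stepped down from group to group. Its levels were 8.11, 5.19 and 4.57 CPM with shNT, 4.08, 3.55 and 3.16 with shRad21_1 and 1.62, 0.674 and 0.685 with shRad21_2. The 3 groups did not overlap, and here shRad21_1 replicate 1 was the highest of its group. S100b fell with shRad21_2 (-2.55, SE 0.36, edgeR adjusted p = 3.98e-04) and was lower with shRad21_2 than with shRad21_1 (-1.83, SE 0.35, adjusted p = 0.00558). The value with shRad21_1 was -0.73 (SE 0.32, adjusted p = 0.188). S100b overlaps Dip2a on the other strand without shared exons, and Dip2a was at -0.21 with shRad21_2 (adjusted p = 0.0742). Its relative S100a10, an annexin-binding S100 protein, went the other way, from 90.9 ± 26.0 to 240 ± 25.5 CPM with shRad21_2 (1.40, SE 0.19, adjusted p = 3.62e-04). The intermediate filament genes related to Gfap were not lower alike: Nes, the stem cell filament nestin, rose with shRad21_2 (1.03, adjusted p = 0.00116), and Vim, vimentin, was at -0.36 (adjusted p = 0.0530).

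**Figure D2:**
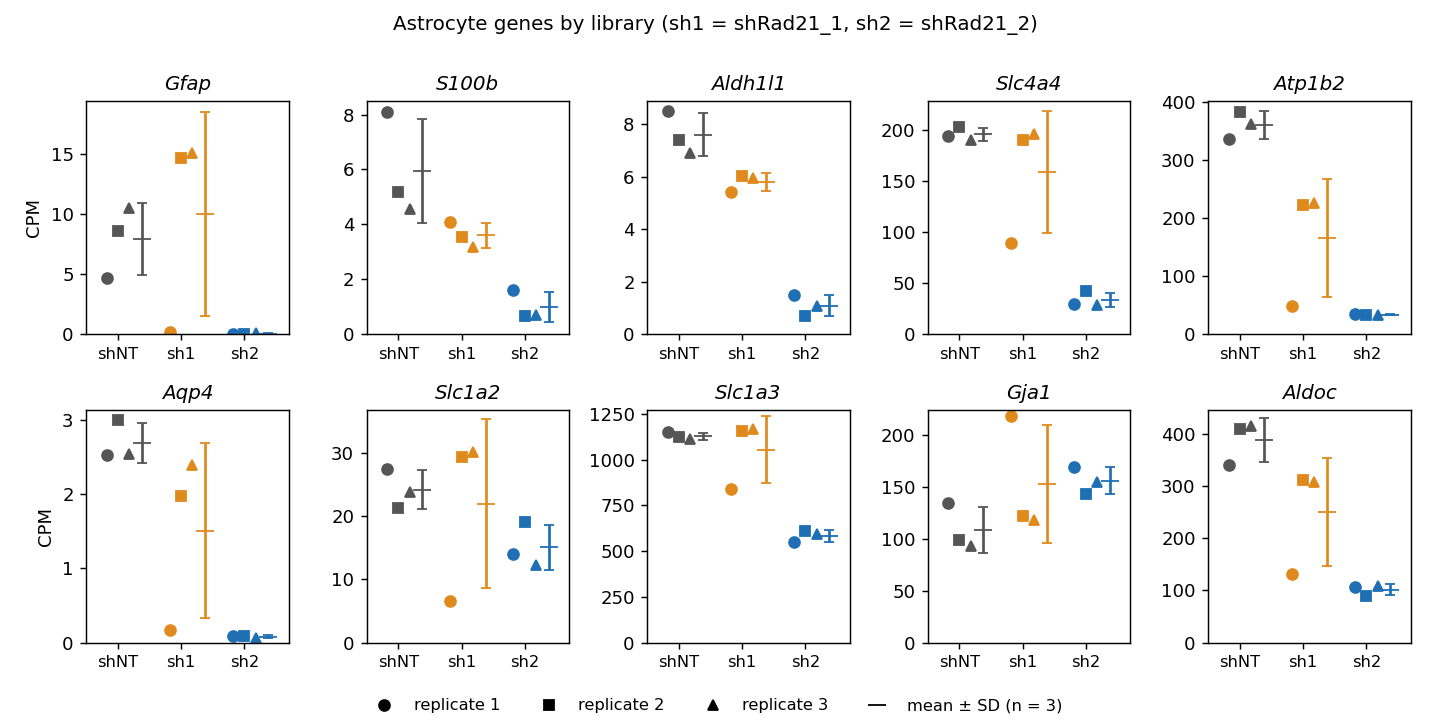
CPM of each astrocyte gene (vertical axes, linear from 0) in the 3 libraries of shNT, shRad21_1 (sh1) and shRad21_2 (sh2); symbols mark the replicate number and bars the mean ± SD (n = 3). In 8 panels the shRad21_2 points lie below all others, and replicate 1 of shRad21_1 (circle) departs from replicates 2 and 3 in all panels except those of S100b and Aldh1l1, upwards for Gja1.

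The 2 enzymes were both lower with shRad21_2, Aldh1l1 by more than Aldoc. Aldh1l1 (ENSMUSG00000030088.15, chromosome 6 from 90486427 to 90600203) was at 8.50, 7.41 and 6.92 CPM with shNT, 5.41, 6.03 and 5.96 with shRad21_1 and 1.48, 0.704 and 1.06 with shRad21_2. The 3 groups did not overlap, and the 3 shRad21_1 libraries were close to each other. Its fall with shRad21_2 was -2.79 (SE 0.24, edgeR adjusted p = 2.39e-05), and the difference between the hairpins was -2.40 (SE 0.24, adjusted p = 1.55e-04). With shRad21_1 it was at -0.39 (SE 0.21, adjusted p = 0.277). Exons of Aldh1l1 overlap the long non-coding RNA Gm45901 on the same strand and the antisense RNA Gm15756, neither of which is in the count table, and whether strand was used in counting is not known here.

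Aldoc (ENSMUSG00000017390.15, chromosome 11 from 78322968 to 78327781), the brain form of the glycolytic enzyme aldolase, was at 340, 410 and 415 CPM with shNT, 131, 313 and 308 with shRad21_1 and 106, 88.9 and 109 with shRad21_2. All shRad21_1 libraries were below all shNT libraries, and replicate 1 lay close to the shRad21_2 libraries. Aldoc fell with shRad21_2 (-1.94, SE 0.28, edgeR adjusted p = 4.51e-04) and differed between hairpins (-1.31, SE 0.27, adjusted p = 0.00746). With shRad21_1 it was at -0.63 (SE 0.27, adjusted p = 0.165), and at -0.32 (adjusted p = 0.0954) without replicate 1. Aldoa, the general aldolase, did not pass the test (0.00 with shRad21_2, adjusted p = 0.984). As a share of the summed counts of Aldoa and Aldoc, Aldoc made up 34.4% ± 4.43 in shNT (SD, n = 3), 17.1%, 26.6% and 26.4% in the shRad21_1 libraries and 12% ± 0.624 with shRad21_2. These shares are not per length, so they compare libraries and not genes.

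The bicarbonate cotransporter Slc4a4 (ENSMUSG00000060961.14, chromosome 5 from 88886818 to 89239653) was at 195, 203 and 191 CPM with shNT, 89.9, 191 and 197 with shRad21_1 and 29.7, 41.9 and 29.0 with shRad21_2. shRad21_1 replicates 2 and 3 stood at the shNT level and replicate 1 at 45.8% of the shNT mean. Slc4a4 fell with shRad21_2 (-2.55, SE 0.27, edgeR adjusted p = 7.80e-05) and differed between hairpins (-2.25, SE 0.27, adjusted p = 4.50e-04). With shRad21_1 the value was -0.30 (SE 0.25, adjusted p = 0.496), and -0.02 without replicate 1.

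Atp1b2 (ENSMUSG00000041329.13, chromosome 11 from 69599736 to 69605942, minus strand), the beta subunit that astrocytes pair with the pump's alpha subunits, was at 336, 384 and 362 CPM with shNT, 48.0, 223 and 227 with shRad21_1 and 34.6, 33.1 and 32.7 with shRad21_2. All shRad21_1 libraries were below all shNT libraries, and the shRad21_2 libraries had an SD of 1.01 CPM. Atp1b2 fell with shRad21_2 (-3.43, SE 0.47, edgeR adjusted p = 3.44e-04) and differed between hairpins (-2.31, SE 0.45, adjusted p = 0.00544). The value with shRad21_1 was -1.12 (SE 0.43, adjusted p = 0.127). Without replicate 1 it was smaller and called, as given above.

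The beta subunits of the pump did not move together. Atp1b2 made up 67.9% ± 0.952 of the counts of Atp1b1, Atp1b2 and Atp1b3 in shNT and 17.0% ± 2.01 with shRad21_2, and it held 21.4%, 59.6% and 59.3% in the shRad21_1 libraries. Atp1b3 made up 23.9% ± 1.25 in shNT and 78.4% ± 2.77 with shRad21_2. Its own level did not pass the test (0.30 with shRad21_2, edgeR adjusted p = 0.0667). Atp1b1 fell as well, from 43.2 ± 4.55 to 9.22 ± 0.680 CPM (-2.23, SE 0.21, adjusted p = 4.02e-05).

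**Figure D3:**
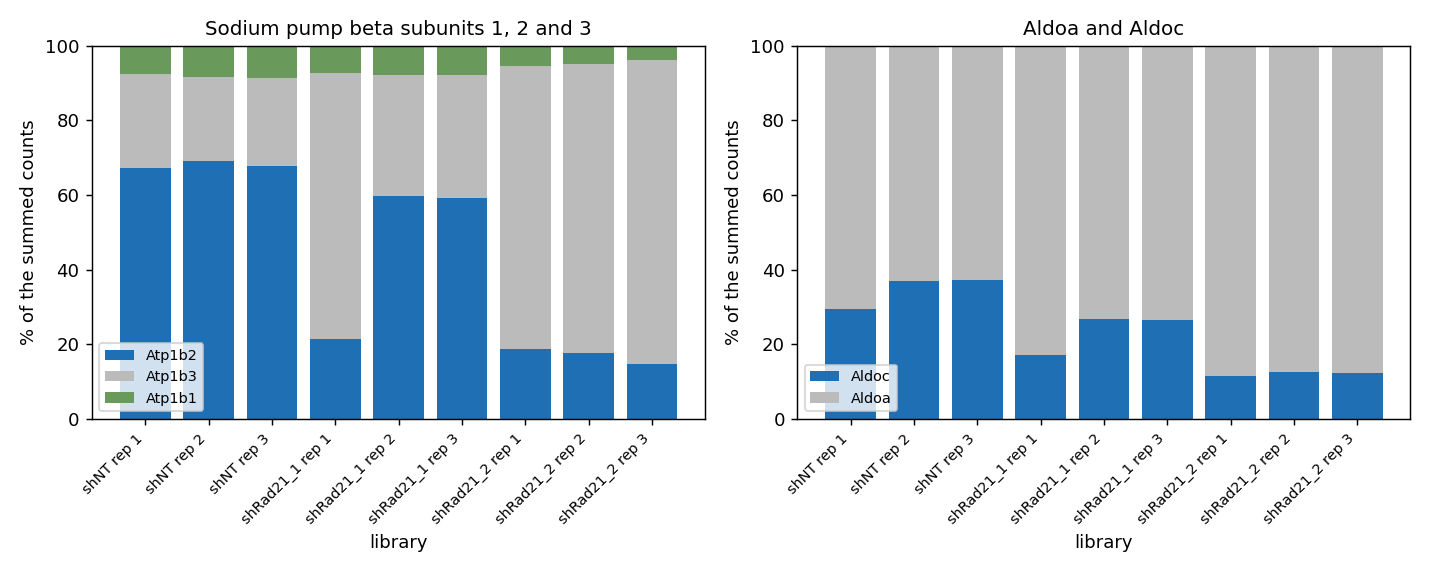
Share of the summed counts of related genes (vertical axis, %, stacked to 100) in each of the 9 libraries, for sodium pump beta subunits (left) and for Aldoa and Aldoc (right). The blue Atp1b2 bars shrink from 67.9% (mean) in shNT to 17.0% with shRad21_2. In Atp1b2, Atp1b3, Aldoc and Aldoa, shRad21_1 replicate 1 resembles shRad21_2 more than it resembles replicates 2 and 3. Its Atp1b1 share (7.37%) is nearer to those of replicates 2 and 3 (7.86% and 7.91%) than to those with shRad21_2 (3.85% to 5.32%).

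Aqp4 (ENSMUSG00000024411.10, chromosome 18, minus strand), the water channel, was low in all libraries and close to the limit of 3 counts with shRad21_2. It was at 2.53, 3.0 and 2.55 CPM with shNT, 0.163, 1.97 and 2.39 with shRad21_1 and 0.0886, 0.0880 and 0.0571 with shRad21_2. shRad21_1 replicate 1 was nearer to shRad21_2 than to its own group. Counts were 334 in shNT, 170 with shRad21_1 (6 of them in replicate 1) and 9 with shRad21_2, a depth-scaled ratio of shNT to shRad21_2 of 34.3 (exact interval 17.8 to 75.6, counting error only). Aqp4 fell with shRad21_2 (-5.04, SE 0.85, edgeR adjusted p = 0.00116) and differed between hairpins (-4.21, SE 0.86, adjusted p = 0.00700). The second call was not made by limma-voom (-3.40, adjusted p = 0.0742), where 19 alternatives gave adjusted p from 2.10e-06 to 0.0742. With shRad21_1 the value was -0.83 (SE 0.60, adjusted p = 0.421), and -0.30 without replicate 1.

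Part of the dystrophin complex that anchors Aqp4 at the endfoot was lower too. Of 11 tested genes of the complex, 5 fell with shRad21_2, among them Dag1, Dmd, Sntb1 and Sgcb, and 1 rose (Sntb2). With shRad21_1 2 fell, Dmd among them. Over all genes tested, 22.5% fell and 21.1% rose with shRad21_2, and 5.63% fell with shRad21_1. The list had a median of -0.30 with shRad21_2 and -0.13 with shRad21_1. Dmd, dystrophin, went from 126 ± 5.51 CPM in shNT to 69.7 ± 10.7 with shRad21_1 (-0.86, SE 0.14, edgeR adjusted p = 0.00563) and 45.3 ± 7.85 with shRad21_2 (-1.48, SE 0.14, adjusted p = 4.35e-05). With shRad21_1 1 fell without shNT replicate 3. The calls of Sgcb and Sntb2 with shRad21_2 were lost without shNT replicate 2 or 3 or shRad21_2 replicate 1 or 2, and of Sgcb also without shRad21_2 replicate 3. With close pairs of libraries summed to 1 library each, 0 of the 11 were called with shRad21_1, and 4 fell with shRad21_2.

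Of the 2 glutamate transporters, Slc1a3 passed the test with shRad21_2 and Slc1a2 did not; the difference between them was not tested. Slc1a3 (ENSMUSG00000005360.14, chromosome 15 from 8634124 to 8710764, minus strand) was at 1151, 1123 and 1113 CPM with shNT, 842, 1156 and 1168 with shRad21_1 and 549, 611 and 593 with shRad21_2. It had the narrowest shNT range of the 10 genes (a highest to lowest ratio of 1.03), and with shRad21_2 every library stood near 51.8% of the shNT mean. Slc1a3 fell with shRad21_2 (-0.95, SE 0.12, edgeR adjusted p = 1.99e-04) and differed between hairpins (-0.85, SE 0.12, adjusted p = 0.00101). Both values are under the fold of 2 that the strictest alternative asked for. With shRad21_1 the value was -0.10 (SE 0.12, adjusted p = 0.648), and 0.04 without replicate 1.

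Slc1a2 (ENSMUSG00000005089.15, chromosome 2 from 102658659 to 102790784) was at 27.4, 21.2 and 23.7 CPM with shNT, 6.50, 29.3 and 30.1 with shRad21_1 and 13.9, 19.0 and 12.2 with shRad21_2. Every shRad21_2 library was below every shNT library, but the lowest library of all was shRad21_1 replicate 1, and the highest were its replicates 2 and 3. The differences did not pass the test: -0.68 (SE 0.44, edgeR adjusted p = 0.234) for shRad21_2 against shNT, -0.13 (SE 0.43, adjusted p = 0.882) for shRad21_1 and -0.55 (SE 0.44, adjusted p = 0.388) between hairpins. Without shRad21_1 replicate 1, which enters the shared estimate of spread, Slc1a2 was called lower with shRad21_2 (-0.68, adjusted p = 0.00467) and between hairpins (-0.98, adjusted p = 0.00184). It was also called in a fit of shNT and shRad21_2 alone (-0.68, adjusted p = 0.00885). An antisense RNA, Gm13872, overlaps exons of Slc1a2 and is not in the count table. Slc1a1, the neuronal glutamate transporter, fell with shRad21_2 (-1.96, adjusted p = 4.50e-04) from a level of 2.55 to 5.09 CPM in shNT.

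Gja1 (ENSMUSG00000050953.10, chromosome 10 from 56377330 to 56402513) was the member that did not go down. It was at 134, 98.2 and 92.9 CPM with shNT, 218, 122 and 118 with shRad21_1 and 169, 143 and 154 with shRad21_2. The shRad21_2 libraries were all above the shNT libraries, and the highest library was shRad21_1 replicate 1. The values did not pass the test: 0.52 (SE 0.23, edgeR adjusted p = 0.0869) for shRad21_2, 0.49 (SE 0.23, adjusted p = 0.198) for shRad21_1 and 0.03 (SE 0.23, adjusted p = 0.937) between hairpins. Without shRad21_1 replicate 1 the second value was 0.15 (adjusted p = 0.579) and the third 0.38 (adjusted p = 0.0673). Gja1 was called higher with shRad21_2 by DESeq2 (0.52, adjusted p = 0.0430), without shNT replicate 1 (0.70, adjusted p = 0.0478) and without shRad21_1 replicate 1 (0.52, adjusted p = 0.00646). The adjusted p of the 20 alternatives lay between 2.77e-04 and 0.237. Other gap junction genes went both ways. Gjc1, connexin 45, rose from 20.0 ± 2.96 CPM in shNT to 47.1 ± 1.32 with shRad21_1 (1.24, SE 0.11, adjusted p = 3.63e-04) and 63.2 ± 4.25 with shRad21_2 (1.66, SE 0.11, adjusted p = 5.64e-06). Gjc3, a connexin of oligodendrocytes, fell from 34.3 ± 3.48 to 6.63 ± 1.65 CPM with shRad21_2 (-2.37, SE 0.21, adjusted p = 3.22e-05).

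Across all family relatives of the members, intermediate filaments, S100 proteins, pump subunits, aquaporins, glutamate transporters, connexins and others, the picture was mixed. Of 29 tested relatives, 6 rose and 9 fell with shRad21_2, against 21.1% and 22.5% of all genes, with a median of -0.33. With shRad21_1 1 rose (Gjc1) and 2 fell (Atp1b1 at -0.77 and Aqp1 at -1.60), against 4.19% and 5.63% of all genes. Neither fall was called when shNT replicate 2, shNT replicate 3 or shRad21_1 replicate 2 was left out. With the replicate block, 5 relatives were lower with shRad21_1, and with close pairs summed 0. With shRad21_2 the numbers ran from 3 to 7 higher and from 7 to 12 lower over the fits that left out 1 library, with 3 higher without shNT replicate 1.

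The members varied together across libraries with 2 exceptions, as a description over 9 libraries that share hairpins and depth. The Pearson correlation of log2(CPM + 1) with the mean of the other 9 members was between 0.848 (S100b) and 0.979 (Slc1a3) for 8 of them, 0.585 for Slc1a2 and -0.727 for Gja1. These 8 are the members called lower with shRad21_2, so the difference between groups is part of these correlations. By library, the median log2(CPM + 1) of the 10 genes relative to the shNT mean was 0.01, 0.02 and -0.03 in the shNT libraries. It was -1.34, -0.17 and -0.06 in shRad21_1 replicates 1, 2 and 3, and -1.78, -2.08 and -1.94 with shRad21_2. In shRad21_1 replicate 1, 9 members were below every shNT library and Gja1 above, the same sides as in each shRad21_2 library. Of all genes tested, 38.6% lay below and 39.0% above the shNT range in that library, and 41.3% to 42.1% below and 41.0% to 41.7% above in the shRad21_2 libraries. In each of its replicates 2 and 3, 5 members were below (S100b, Aldh1l1, Atp1b2, Aqp4 and Aldoc) and 3 above (Gfap, Slc1a2 and Slc1a3), where 34.4% of all genes lay below in each and 34.7% and 35.0% above.

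Replicate 1 of shRad21_1 did not differ from its group by 1 factor. Its CPM relative to the mean of replicates 2 and 3 was 0.0128 for Gfap, 0.0747 for Aqp4, 0.214 for Atp1b2, 0.219 for Slc1a2, 0.421 for Aldoc, 0.464 for Slc4a4 and 0.725 for Slc1a3. It was 0.902 for Aldh1l1, 1.21 for S100b and 1.82 for Gja1, so the 2 genes that separate all 3 groups without overlap and with close shRad21_1 libraries did not follow it. Rad21 itself stood at a ratio of 1.06 in that library. Whether the library's other differences have a part in these values was not tested.

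**Figure D4:**
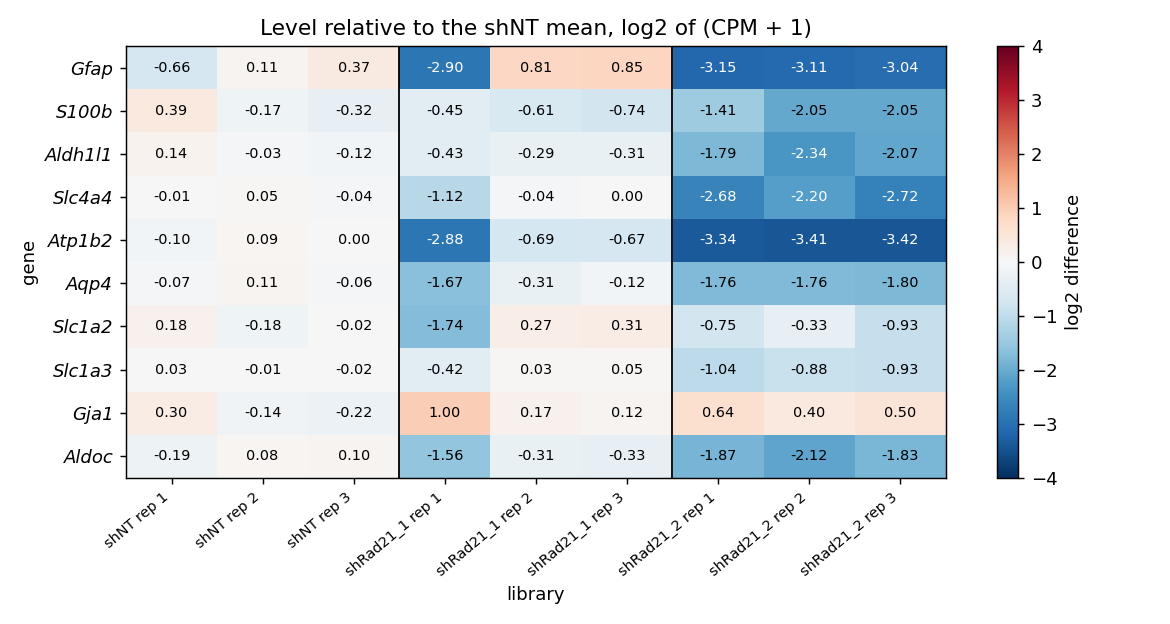
Level of each astrocyte gene in each library as the difference in log2(CPM + 1) from the mean of the shNT libraries (colour scale, blue lower and red higher; the number is printed in each cell). The 3 shRad21_2 columns are blue except in the Gja1 row, and the column of shRad21_1 replicate 1 resembles them for Gfap (-2.90), Atp1b2 (-2.88) and Aqp4 (-1.67) but not for S100b (-0.45) or Aldh1l1 (-0.43).

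A wider list held 40 other astrocyte genes, 36 of them tested. With shRad21_2, 30 fell and 0 rose (median -2.09), between 28 and 31 lower over the fits without 1 library. Over all genes tested, 22.5% fell and 21.1% rose. Between the hairpins 25 genes of the list were lower with shRad21_2 (median -1.59), beside 14.4% of all genes. That count ran from 19 to 33 over the fits without 1 library. The count was 33 without shRad21_1 replicate 1, and 14 with close pairs of libraries summed. With shRad21_1 the list had a median of -0.40, and 5.63% of all genes tested were lower and 4.19% higher. In the list, 7 fell (Glul, Slc6a11, Slc25a18, Slc38a3, Mlc1, Gpr37l1 and Chrdl1) and Pla2g7 rose. These were 3 lower and 0 higher without shNT replicate 2, 4 and 1 without shNT replicate 1 or 3, 11 and 3 without shRad21_1 replicate 1, and 0 of either with close pairs summed.

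Single genes of that list changed more than most of the 10. Slc6a11, the GABA transporter GAT-3, was at 361, 345 and 335 CPM with shNT, 29.5, 137 and 140 with shRad21_1 and 3.5, 3.23 and 2.77 with shRad21_2. The 3 groups did not overlap, and replicate 1 was again the lowest of shRad21_1. It fell by 6.77 on the log2 scale with shRad21_2 (SE 0.56, edgeR adjusted p = 2.11e-05) and by 1.77 with shRad21_1 (SE 0.43, adjusted p = 0.0308), the latter call lost when any single shNT library (-1.74, -1.77 and -1.79) or shRad21_2 replicate 3 (-1.77) was left out. Gpr37l1, an orphan receptor of astrocytes, fell with shRad21_2 (-6.03, SE 0.51, adjusted p = 2.33e-05) and with shRad21_1 (-2.23, SE 0.38, adjusted p = 0.00729). Ppp1r3c, a glycogen-targeting subunit of protein phosphatase 1, fell with shRad21_2 from 17.2 ± 4.74 to 1.37 ± 0.238 CPM (-3.64, SE 0.25, adjusted p = 7.68e-06). Mt3, the brain metallothionein, fell from 49.3 ± 7.60 to 7.84 ± 3.02 CPM (-2.64, SE 0.25, adjusted p = 4.55e-05).

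Genes that reactive astrocytes induce went both ways with shRad21_2, more of them called lower, while their summed level was higher. That sum, in which genes with high counts weigh most, was 433 to 478 CPM with shNT, 541 to 607 with shRad21_1 and 534 to 557 with shRad21_2. Of 21 tested, 8 fell (Serpina3n, Osmr, Timp1, S1pr3, Clcf1, Gbp2, Psmb8 and H2-T23) and 4 rose (Cp, Cd44, H2-D1 and Fkbp5) with shRad21_2, with a median of -0.84. Over all genes tested, 22.5% fell and 21.1% rose in that comparison. The calls of Serpina3n (-2.02) and Cp (0.91) were lost when any single library of shNT or shRad21_2 was left out. Between the hairpins 8 genes of the list were lower with shRad21_2 and 1 higher, beside 14.4% and 11.9% of all genes. The number higher against shNT was 1 without shNT replicate 2 or shRad21_2 replicate 3 and 2 without shNT replicate 1 or 3. Osmr, a subunit of the oncostatin M receptor, stood at 2.90 ± 0.812 CPM in shNT and fell to 0.231 ± 0.0560 (-3.62, SE 0.39, edgeR adjusted p = 9.22e-05), and S1pr3, a receptor for sphingosine 1-phosphate, fell as well (-3.58, SE 0.36, adjusted p = 5.55e-05). With shRad21_1, Emp1, a membrane protein gene, rose (1.28, SE 0.17, adjusted p = 0.00261) and Ptx3 was at -1.58 (adjusted p = 0.0314), a call lost without any single library of shNT or shRad21_1. Of all genes tested, 4.19% rose and 5.63% fell with shRad21_1. With that hairpin's replicate 1 left out, 5 genes of the list were higher and 0 lower. With the replicate block 3 were higher and 1 lower with shRad21_1.

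Among 23 transcription factors and signalling genes that lead stem cells to the astrocyte fate, 8 fell and 3 rose with shRad21_2 (median -0.34), and 2 fell with shRad21_1 (median -0.25). Of all genes, 22.5% fell and 21.1% rose with shRad21_2, and 5.63% fell with shRad21_1. With close pairs of libraries summed, 0 of the 23 were called with shRad21_1. Nfia, an NFI factor that starts gliogenesis, rose with shRad21_2, from 182 ± 2.89 CPM to 318 ± 39.6 (0.81, SE 0.10, edgeR adjusted p = 2.20e-04), while Nfib (-0.02, adjusted p = 0.934) and Nfix (0.02, adjusted p = 0.925) did not pass the test. Sox9, a gliogenic SOX factor, fell with shRad21_2 (-0.69, SE 0.17, adjusted p = 0.00804). Of the cytokine pathway, Stat3 (-0.50, adjusted p = 0.0131), Lifr, the LIF receptor (-0.80, adjusted p = 9.30e-04), and Socs3, a STAT3 target (-1.98, SE 0.33, adjusted p = 0.00116), fell with shRad21_2. Lifr (-0.71, adjusted p = 0.00908) and Cntfr (-0.55, adjusted p = 0.0173) fell with shRad21_1, and Cntfr was not called when shNT replicate 2, shNT replicate 3 or shRad21_1 replicate 2 was left out. Cntfr was not called with shRad21_2 against shNT, and it was higher with shRad21_2 than with shRad21_1 (0.60, adjusted p = 0.00573). Between the hairpins 3 genes of the list were higher with shRad21_2 (Nfia, Jak1 and Cntfr) and 4 lower, beside 11.9% and 14.4% of all genes. The call of Jak1 (0.23) held in 9 of 19 alternatives. Socs3 was at 5.79 CPM in shRad21_1 replicate 1 and 16.4 and 16.2 CPM in replicates 2 and 3, beside 17.1 to 22.5 in shNT. In replicate 1, where Gfap was low too, 38.6% of all genes tested lay below the shNT range. A link between Socs3 and Gfap was not tested.

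Markers of other cells moved in part with the 10. With shRad21_2, 43.6% of all genes tested were called, 22.5% lower and 21.1% higher. Called in that comparison were 81.8% of the tested oligodendrocyte lineage, 68% of the stem cell and 62.5% of the neuronal markers. Oligodendrocyte lineage markers (11 tested of 15) had 8 lower and 1 higher, Olig2, with shRad21_2, and their median relative level was -0.53 in shRad21_1 replicate 1 against 0.02 and 0.05 in its other libraries. Their summed level was 2867 to 3001 CPM with shNT, 3164 to 3344 with shRad21_1 and 2748 to 3151 with shRad21_2, so that the shRad21_1 libraries lay above those of both other groups. Neural stem cell markers had 8 higher and 9 lower of 25, and summed to 10938 to 11206, 9058 to 10719 and 9201 to 10245 CPM. Neuronal markers had 4 higher (2 without shNT replicate 2) and 6 lower of 16 tested, and summed to 1259 to 1384, 1229 to 1284 and 1140 to 1258 CPM. The 10 astrocyte genes themselves summed to 2207 to 2262, 1344 to 2073 and 905 to 939 CPM. Microglia markers were near 0, with Aif1, Cx3cr1, C1qa, C1qb and Trem2 at 0 counts in every library and a summed level of at most 3.16 CPM. P2ry12, the 1 tested, fell with shRad21_2 (-2.37). Endothelial (7.90 to 15.1 CPM in all libraries) and mesenchymal markers (0.469 to 10.3 CPM) were also low, and 2 of each fell with shRad21_2 (Kdr and Flt1, Pdgfrb and Acta2). Pdgfrb (-2.29) was not called without shNT replicate 1 (-2.12) or 2 (-2.18) or without shRad21_2 replicate 1 (-2.36), 2 (-2.0) or 3 (-2.56), which left 1 mesenchymal marker lower. Ependymal markers summed to 19.1 to 42.4 CPM, with Foxj1 lower with both hairpins and Hydin higher. The call of Hydin with shRad21_1 (3.41) was lost when any single shNT library was left out (3.52, 3.37 and 3.34). The part of any change in the mix of cells in the values of the 10 genes was not tested.

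**Figure D5:**
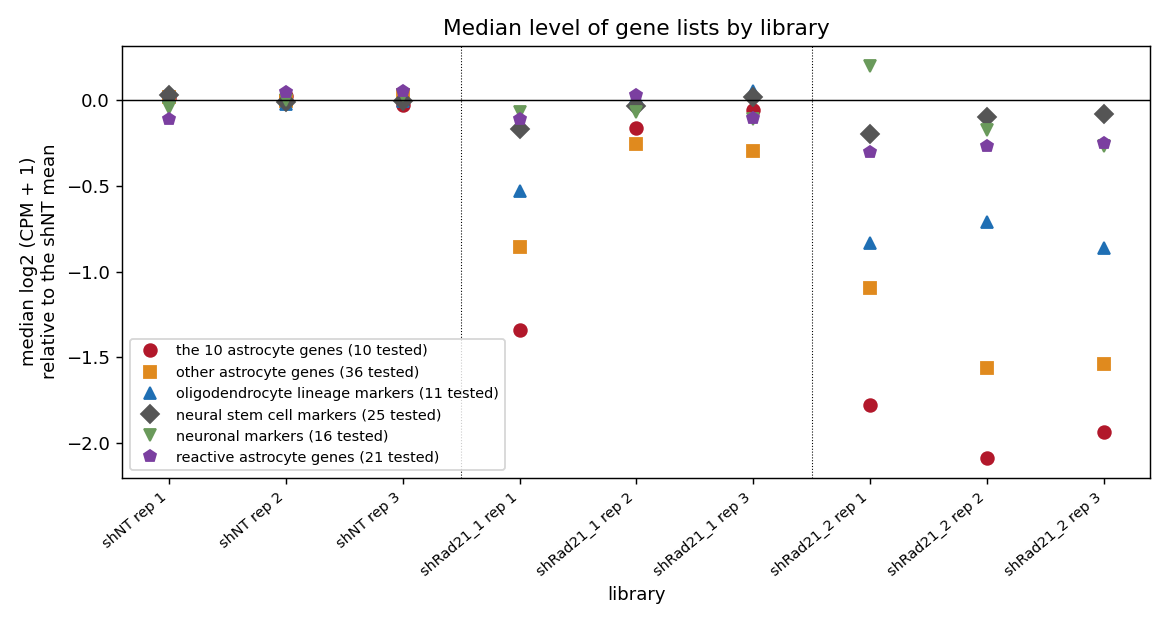
Median over the tested genes of each list of the level in each library, as the difference in log2(CPM + 1) from the mean of the shNT libraries (vertical axis), for 6 lists. The 10 astrocyte genes (red circles) and the other astrocyte genes (orange squares) are lowest in the shRad21_2 libraries and in shRad21_1 replicate 1 (-1.34 for the 10). In these libraries the neural stem cell, neuronal and reactive lists lie between -0.31 and 0.20. The oligodendrocyte lineage markers are lower there too, at -0.53 in shRad21_1 replicate 1 and -0.83, -0.71 and -0.86 with shRad21_2.

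Genes outside the list with the library pattern most like the 10 were found by correlation of log2(CPM + 1) with the mean standardised pattern of the members over the 9 libraries, among tested genes with a mean log2 CPM of at least 1. These were Timp3 (Pearson 0.995), Ppp2r2b (0.995), Ppap2b (0.995), Gatm (0.993), Rnf157 (0.992) and Kcnj16 (0.991). Timp3, an inhibitor of metalloproteinases, was at 50.8, 51.2 and 50.7 CPM with shNT, 15.7, 43.4 and 45.5 with shRad21_1 and 9.10, 9.38 and 7.79 with shRad21_2. Kcnj16, a potassium channel of astrocytes, is also in the list of 40. With a pseudocount of 0.1 in place of 1, 5 of these 6 were again among the top 6.

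Genes next to the 10 on the chromosome were described because cohesin acts along the chromosome. For the nearest tested protein-coding gene on either side of each member, 20 in all and no member among them, 5 were called higher and 6 lower with shRad21_2 (55% against 43.6% of all genes), with a median log2 fold change of -0.18. With shRad21_1, 3 were called higher and 1 lower (20% against 9.82%). Those called with both hairpins were Fjx1, 206 kb from Slc1a2, and Pigs, 5.45 kb from Aldoc. Fjx1 was at 0.49 with shRad21_1 (edgeR adjusted p = 0.0467, close to the threshold) and 1.00 with shRad21_2 (adjusted p = 3.25e-04). Pigs was at -0.53 with shRad21_1 (adjusted p = 0.0103) and -0.98 with shRad21_2 (adjusted p = 6.23e-05). Their values under the alternatives are not given here. Distances are between GENCODE gene starts, which can differ from the RefSeq starts of the promoter windows, as for Slc1a2. Fjx1 was thus higher beside Slc1a2, which was not called, and Pigs was lower beside Aldoc, which fell with shRad21_2.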

How the data were processed

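mRNA was sequenced from 9 libraries in 3 groups (shNT, shRad21_1, shRad21_2). The authors deposited whole-number counts per gene, made with FastQC, cutadapt, Trim Galore, Bowtie2 and RSEM on mm10, per the submitters' processing notes. Not given in the sources used here: tool versions, the annotation, the strand setting and the rounding of RSEM's estimates. Depth was 34780003 to 46644607 counts per library, and 6715 genes had 0 counts in all libraries.

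Genes passing edgeR's filterByExpr (13560) were scaled by TMM and fitted with 1 mean per group over all 9 libraries. edgeR's quasi-likelihood test (4.0.16, R 4.3.3) was two-sided with Benjamini-Hochberg adjustment, called under 0.05. limma-voom (limma 3.58.1), DESeq2 (1.42.0), other scalings, filters, a replicate block and left-out libraries were alternatives. The code was tested on simulated data. Positions come from GENCODE M21 (GRCm38, the assembly of mm10), matched by symbol for 13033 of 13560 genes (96.1%).

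The members and lists were chosen with earlier results of these data known. Genes named were the members, Rad21, the 4 tested genes of each other list with the smallest p for shRad21_2 against shNT, all called genes of a list with 5 or fewer calls, the 6 genes of most similar pattern and neighbours called with both hairpins; other names were added after their values were seen. Replicate numbers in the labels may pair libraries. Correlations of deviations from the group mean between same-numbered libraries were 0.304, 0.188 and 0.202 for shNT with shRad21_1, and 0.243 and 0.227 for 2 pairs with different numbers (shNT 2 with shRad21_1 3, shNT 3 with shRad21_1 2). All 3 same-numbered values exceed 0.1, so the numbers may pair these libraries, but they do not give the best match for 2 of the 3. Replicates 2 and 3 were close to each other in both groups, so these correlations cannot settle whether libraries are paired. The main p-values come from a fit without pairing, and the replicate block was an alternative. Same-numbered values were 0.0584, 0.0718 and 0.201 for shNT with shRad21_2. With the replicate block, 0 members were called for shRad21_1 against shNT, as without it. Some genes of the lists are counted in them but not reported here by name.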

Additional observations from a re-analysis of the deposited data

How the results depend on the processing

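Of 788 member values computed under alternatives, 742 kept their direction and side of the threshold. The fall of the 8 members with shRad21_2 against shNT held under the alternatives run, except that limma-voom did not call Gfap and Slc1a3 missed an absolute log2 fold change of 1. For shRad21_1 against shNT, Gfap turned to -1.08 with limma-voom, -0.38 with the replicate block, and -0.05 and -0.091 without shRad21_1 replicate 2 or 3 (-0.091 to 0.907 with 1 library out). Slc1a2 and Slc1a3 turned to 0.30 and 0.042 without shRad21_1 replicate 1 (-0.43 to 0.30 and -0.18 to 0.042 with 1 library out), and to 0.40 and 0.056 without both first libraries. Between hairpins Gja1 turned to -0.027 on library totals, -0.033 without shRad21_2 replicate 1, -0.11 and -0.13 without shRad21_1 replicate 2 or 3 (-0.13 to 0.38 with 1 library out), and -0.12 with close pairs summed. None of these passed the test, and the cause was not tested.

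Leaving out 1 library gave 0 to 1 members lower for shRad21_1, and 2 were lower without both first libraries. Members higher with shRad21_2 numbered 1 (Gja1) with DESeq2, in a fit of the 2 groups alone, with the replicate block (0.54, adjusted p = 0.0109) and without both first libraries, and 0 to 1 with 1 library left out. For the mean of the hairpins it was 1 with DESeq2, the block (0.50, adjusted p = 0.0122) and both first libraries out, and 0 to 1 with 1 library out. Between hairpins it was 1 without both first libraries. For shRad21_1 against shNT, the block changed no direction or call of a member other than the sign of Gfap. Between hairpins, limma-voom called neither Gfap nor Aqp4, and both failed the filter in a fit of these 2 groups. For the mean, Gfap was also not called by limma-voom (-4.40) or with close pairs summed (-3.73).

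Genes called of all tested numbered 1331 for shRad21_1, but 2042 with DESeq2, 130 with close pairs summed, 425 at an absolute log2 fold change of 1 and 460 to 1599 with 1 library out. For shRad21_2 they numbered 5917, but 3707 with close pairs summed and 1754 with the fold rule. Between hairpins they numbered 3563, but 2233 in a fit of the 2 groups, 1270 with close pairs summed, 961 with the fold rule and 2045 to 4486 with 1 library out. For the mean they numbered 4528, but 2033, 1140 and 2541 to 4940 in the same order without the fit of 2 groups, which the mean does not allow. With the block they were 1436, 6066, 3643 and 4717. With coding length, ranks in shNT became 8 for Gfap (from 7), 5 for Slc4a4 (4), 2 for Atp1b2 (3), 7 for Slc1a2 (8), 4 for Gja1 (5) and 3 for Aldoc (2). Counts of a few reads limit Gfap and Aqp4 with shRad21_2.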
